A study of Mus musculus with 98 samples.

Results

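MedFb1b is 1 of 19 subtypes that the authors named among nonepithelial thymic stroma (NETS) cells of the mouse, and it is the late form of their medullary fibroblast subtype 1, whose early form is MedFb1a. Its members were all cells that carried this annotation in the deposited cell table of the age series, 2521 of 36208 cells. The age series held 8 single-cell libraries of live Ter119-CD45-EpCAM- cells from wild-type C57BL/6 mice, 1 at embryonic stage E12.5, 1 at E13.5 and 2 each at E16.5, birth (P0) and 4 weeks (W4). By a figure legend of the paper, E12.5 and E13.5 cells came from pooled thymi of 2 litters, and those of later ages from 2 thymi per age. The legend does not say how these thymi were divided between libraries. A separate newborn set of Ter119-CD45- cells, fixed before capture, compared 3 libraries of P0 mice heterozygous for both Tbx1 and Crkl (the Tbx1 allele is a LacZ insertion) with 3 of wild-type littermates. Bulk RNA-seq libraries of wild-type stromal populations, sorted as live CD45- cells at P0 and at 4 weeks, gave samples apart from the clustered single cells. Neither the labels nor the methods say whether the 2 libraries of 1 age came from separate suspensions. The p-values of the age series measure the spread between these libraries, which may be technical. The 2 P0 libraries, however, did not hold the same mix of sexes, as given below.

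Fibroblasts of the thymic medulla lie beneath and between medullary epithelial cells and around vessels. They lay down basement membrane and interstitial matrix, and they secrete chemokines and cytokines that place and sustain lymphoid and myeloid cells. Lymphotoxin beta receptor signalling through the noncanonical NF-kB pathway is known to act in them, and they are thought to contribute self-antigens to tolerance. Of the genes used to recognise MedFb1b, Col15a1 encodes a chain of collagen XV, a proteoglycan-like collagen of basement membrane zones, Oaf encodes the out at first protein, and Serpine2 encodes protease nexin-1, an inhibitor of thrombin and other serine proteases.

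The libraries of the age series held 17 MedFb1b cells at E12.5, 170 at E13.5, 401 and 455 at E16.5, 358 and 541 at P0, and 261 and 318 at W4. The E12.5 library fell below the minimum of 20 cells and was given no level. The median number of unique molecular identifiers (UMIs) per MedFb1b cell lay between 11167 and 14249 over the 8 libraries. Summed counts of replicate libraries differed beyond the counting noise of UMIs at all 3 replicated ages (chi-square per degree of freedom 1.39 at E16.5, 3.95 at P0 and 2.73 at W4), so each library was counted separately. This statistic does not allow for variation between the cells sampled. The Y-linked gene Ddx3y was at 0 counts normalised to library total (CPM, per 1000000) in the E13.5 library and at 2.82 CPM in P0 replicate 1, against 34.2 to 56.8 CPM in the other 5. The female-expressed RNA Xist was at 863.6 CPM in P0 replicate 1 and 453.9 CPM in P0 replicate 2. The mix of sexes therefore differed between the 2 P0 libraries, and replicate 2 held transcripts of both sexes. Of 36053 distinct cell barcodes in the age series, 0.43% occurred in more than 1 library.

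The label was first set against its 3 markers at 4 weeks, where 18 labels had at least 20 cells in both libraries. Col15a1 stood at 2372 and 2239 CPM in MedFb1b and Oaf at 583 and 581 CPM, each the highest mean of the 18 labels. MedFb1a came next for both, at 1812 and 1935 CPM of Col15a1 and 524 and 570 CPM of Oaf. Serpine2 stood at 2914 and 2791 CPM in MedFb1b, which ranked behind only MedFb2a (5651 and 5664 CPM) and MedFb2b (4367 and 3234 CPM). At 4 weeks the first 2 markers thus ranked the MedFb1 pair highest, whereas Serpine2 was higher in both MedFb2 labels. At P0 capsular labels came close for Oaf, with 297 CPM in MedFb1b against 277 in CapFb1a in replicate 1. In P0 replicate 2 it was 309 CPM against 298 in CapFb4. There Col15a1 was next highest in MedFb2b, at 850 against 1064 CPM. Before birth the name was less well borne out. At E13.5 Col15a1 was at 11.5 CPM in MedFb1b and 290.8 CPM in capillary endothelium, and at E16.5 Oaf was at 206 and 207 CPM, ranking 7 and 6 of 17 labels behind CapFb4 (441.0 and 443.7 CPM) and others. Col15a1 at E16.5 was highest in MedFb1b in replicate 2 and second to the label EnVL in replicate 1. Markers of several other lineages were low in MedFb1b in each of the 7 libraries with a level. Summed over each list, the 4 mesothelial markers reached 0.557 to 5.45 CPM, the 4 neural crest and glial markers 1.14 to 5.73 CPM, the 5 epithelial markers 2.29 to 15.5 CPM and the 3 macrophage markers 0.454 to 3.06 CPM. The 5 mural markers, by contrast, summed to 113.6 to 580.4 CPM, the 4 globin genes to 6.77 to 3302 CPM and the 6 thymocyte and leukocyte markers to 0.521 to 101.5 CPM.

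What distinguished MedFb1b from the other labels was a matter of degree. Of 1724 genes with at least 100 CPM in MedFb1b at W4, 9.69% had their highest level there, and the 20 with the widest margin over the next label led it by only 1.13- to 1.30-fold. These comparisons describe the annotation, which was drawn from the same counts, and carry no test. Among the 20 were enzymes that act on the matrix. Htra1, a secreted serine protease, stood at 1057 and 1053 CPM against a mean of 844.7 in MedFb1a. Mmp9, a gelatinase, stood at 253.2 and 203.9 CPM against 186.7 in MedFb1a, and was higher in MedFb1b in 1 of the 2 libraries only. Fap, the fibroblast activation protein, stood at 241.0 and 222.8 CPM against 203.6, and like Mmp9 and Ikbip did not lead in both libraries. Structural and matrix-associated members were Lamb1, a laminin chain, at a mean of 589.6 against 519.5 CPM, Abi3bp at 663.2 against 562.0 CPM, and Mxra8 at 643.7 against 561.4 CPM, in each case against MedFb1a. P2ry1, a receptor for ADP, stood at 126.2 and 122.6 CPM against 96.5, and Plpp1, a lipid phosphate phosphatase, at 358.3 and 372.2 against 313.2. The next label was MedFb1a for all of the 20 but Unc93b1, Hook3, Rhoj, Tmed1 and Ikbip. Just inside the cutoff lay Frmd6, with a log2 ratio of 0.18 to MedFb1a, and just outside it Naalad2, with a log2 ratio of 0.17 over pericytes. Which genes lead depended on how they were ranked, as the alternatives shared only 7 to 10 of the 20.

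**Figure D1:**
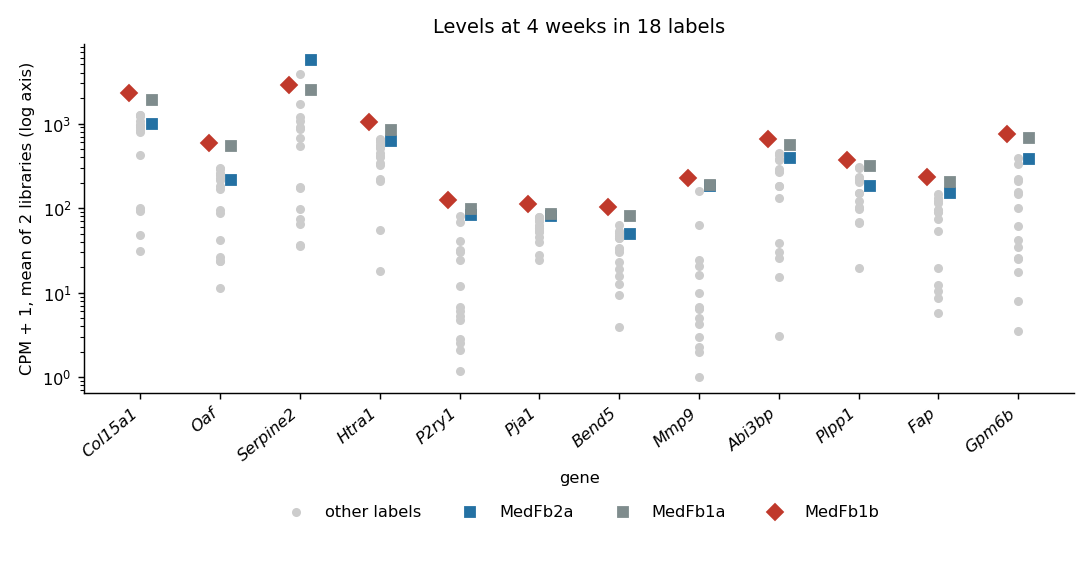
Mean level over the 2 libraries at 4 weeks (CPM + 1, log axis) of the 3 markers and 9 leading genes in each of 18 labels; red diamonds are MedFb1b, squares MedFb1a and MedFb2a, grey points the other labels. MedFb1b tops every column except that of Serpine2, where MedFb2a lies higher, and MedFb1a lies close below.

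For each of the nearest neighbours of MedFb1b, genes were named by a rule that required 1 sign in every library with at least 20 cells of both labels. Genes named as lower than in MedFb1a included stress-induced ones. The mean log2 ratio over 7 libraries was -1.80 for Mt1, a metallothionein, -2.61 for Atf3, a stress-induced transcription factor, -1.80 for Dnajb1, a heat shock cochaperone, -1.90 for Nfkbiz and -1.58 for Gem. At W4, for example, Atf3 was at 11.1 and 13.6 CPM in MedFb1b and 222.3 and 234.8 CPM in MedFb1a, and MedFb1b was the lowest of the 18 labels. Genes higher in MedFb1b than in MedFb1a differed little, with mean log2 ratios of 0.57 for G0s2, 0.43 for Ly6e, 0.41 for Eng, 0.38 for Colec12 and 0.38 for Col6a6.

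From MedFb2a, the other main medullary subtype, MedFb1b differed on the higher side in Smoc2 (mean log2 ratio 2.51 over 7 libraries), Htra3 (1.70), the microfibril component Mfap5 (1.48) and Srpx (1.402), with the lipid transporter Abca8a (1.28). The genes named on the lower side were Colec11 (-2.88), the protease Ctsc (-2.52), Gadd45g (-2.32), Serpina3g (-2.25) and Gucy1a1 (-2.10), a subunit of soluble guanylate cyclase that is known from pericytes. The 5 genes named as lower than in MedFb2b were all interferon-stimulated. Their mean log2 ratios over 6 libraries were -5.70 for Ifit3, -5.61 for Ifit1, -5.74 for Rsad2, -5.29 for Ifit3b and -4.49 for Usp18. The capsular subtype CapFb1b held more Mt1 (-2.45), Ogn (-2.17), Smoc2 (-2.07), Ier3 (-1.98) and Cebpd (-1.76), whereas Ecscr (2.04), Pi15 (1.54), Ndufa4l2 (1.51), Kcnj8 (1.46) and Mfge8 (1.41) were higher in MedFb1b.

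MedFb1b took a growing share of the NETS as the thymus matured. It made up 0.851% of cells at E12.5 (95% Wilson interval 0.532 to 1.36) and 3.02% at E13.5 (2.61 to 3.51). The share was 6.95 and 6.91% at E16.5, 7.63 and 9.47% at P0, and 10.2 and 9.73% at W4, so that neighbouring replicated ages lay close together. Over the 5 ages the share differed (edgeR F test on cell numbers, adjusted p = 0.000526 over 19 labels), by 3.54 on the log2 scale between W4 and E12.5. In this test the single libraries at E12.5 and E13.5 were assumed to vary like those of later ages, 16 of the 19 labels (84.2%) passed, and MedFb2a differed by 3.51. Neither later step alone passed the test, with log2 differences of 0.30 ± 0.16 (SE) for P0 against E16.5 (adjusted p = 0.20) and 0.22 ± 0.16 for W4 against P0 (adjusted p = 0.38). MedFb1a went from 3.56% at E12.5 to 12.1% at E13.5, and then stood lower, down to 2.38 and 2.08% at W4. Shares of sorted, captured cells are not counts of cells in the organ, and the intervals cover counting error only.

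**Figure D2:**
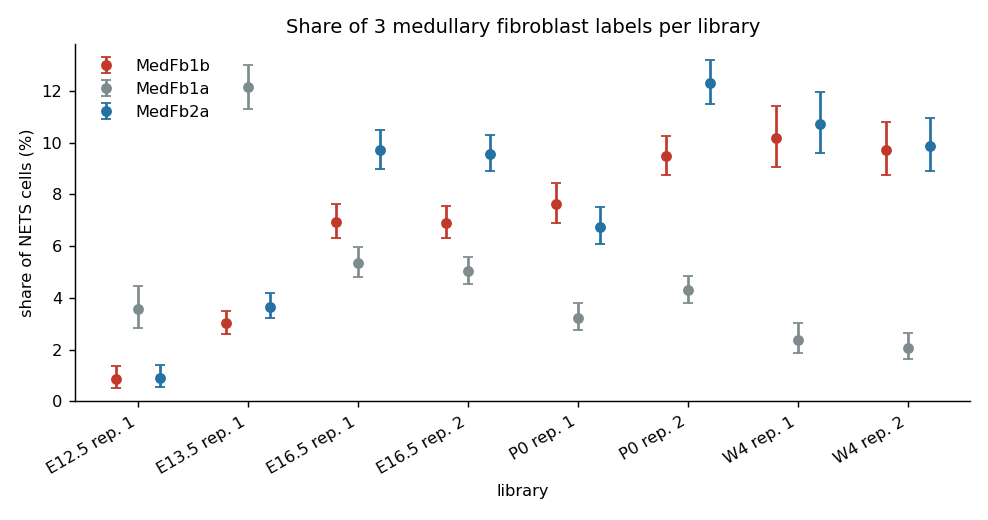
Share of NETS cells (%) with the labels MedFb1b, MedFb1a and MedFb2a in each of the 8 libraries, with 95% Wilson intervals from the number of cells. MedFb1b rises from 0.851% at E12.5 to 10.2 and 9.73% at 4 weeks, while MedFb1a is highest in the E13.5 library.

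Between birth and 4 weeks the MedFb1b transcriptome differed widely. The methods describe a depletion of CD45+ cells with beads for digests of adult thymi. The part of this handling in any difference between P0 and W4 cannot be told apart from that of age. UMIs were summed over the MedFb1b cells of each library and tested with edgeR, and 5814 of 11864 genes (49%) passed an adjusted p of 0.05, 3001 higher (25.3%) and 2813 lower (23.7%) at W4. The median log2 change over all genes was near 0, at -0.0011. After thinning of cells to 2000 UMIs 2452 of 8515 genes passed, and under DESeq2 3815 of 11864 did. Over the 3 ages, 7067 genes (59.6%) passed, and for W4 against E16.5 6699 (56.5%), 3377 higher (28.5%) and 3322 lower (28%), where complement rose in 11 of 11 cases and the fetal list fell in 16 of 17. Most fetal growth and imprinted genes fell, while most complement, chemokine, cytokine, class I presentation and basement membrane genes rose, as set out by group below. Counts of called genes in a list are to be read against these background shares. The 2 P0 libraries differed in their mix of sexes, which the test did not model.

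Col15a1 and Oaf, both used to recognise the label, went on rising. Col15a1 was at 11.5 CPM at E13.5, 415 and 436 at E16.5, 1064 and 1064 at P0, and 2372 and 2239 at W4. Each age lay above the one before with no overlap, and the log2 change was 1.19 ± 0.07 from E16.5 to P0 and 1.08 ± 0.07 from P0 to W4 (adjusted p = 1.7e-07 and 6.26e-09). Oaf was at 133.8 CPM at E13.5, 206 and 207 at E16.5, 297 and 309 at P0, and 583 and 581 at W4, a log2 change of 0.91 ± 0.07 after birth (adjusted p = 9.37e-08). Serpine2 passed the test before birth but not after it, rising from 1700 and 1726 CPM at E16.5 to 2835 and 2677 at P0 (log2 0.56 ± 0.06, adjusted p = 2.55e-05), and stood at 2914 and 2791 at W4 (0.02 ± 0.06, adjusted p = 0.83).

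Fetal growth and imprinted genes went down together. Of the 17 genes tested, 16 fell after birth and none rose, with a median log2 change of -3.57. H19, a maternally expressed noncoding RNA, was at 2120.3 CPM at E13.5, 2594 and 2691 at E16.5, 2526 and 2592 at P0, and 3.80 and 4.54 at W4. It thus held its level up to birth and was nearly gone at 4 weeks (log2 -9.27 ± 0.11, adjusted p = 3.32e-16). Dlk1, a paternally expressed Notch-like ligand, was at 2912 and 3725 CPM at P0 and 5.70 and 12.49 at W4, and Mest, a paternally expressed hydrolase, at 1347 and 1342 CPM at P0 and 14.1 and 27.7 at W4. Neither overlapped between ages (log2 -8.50 ± 0.19 and -6.00 ± 0.16). The imprinted zinc finger genes Plagl1 (-5.59 ± 0.17) and Zim1 (-6.65 ± 0.25) fell with them. Igfbp2, an insulin-like growth factor binding protein outside that list, was at 81.1 and 119.3 CPM at P0 and had no UMI at W4, at least 270.1-fold lower when a floor of 3 counts over both W4 libraries was used. The kinase gene Nrk (-4.52 ± 0.15), the angiotensin receptor gene Agtr2 (-7.38 ± 0.20), the cysteine dioxygenase gene Cdo1 (-5.62 ± 0.14) and the G protein regulator Rgs16 (-4.16 ± 0.22) were the other named genes that fell. The one member of the list that did not pass was Sox4, with 183.6 and 131.7 CPM at P0 and 173.2 and 191.2 at W4.

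Complement genes rose throughout, 11 of 11 tested, with a median log2 change of 2.85. C3, the central component of the cascade, was at 1.04 CPM at E13.5, 14.2 and 17.6 at E16.5, 66.3 and 53.6 at P0, and 4494 and 4820 at W4. Its levels at W4 lay far above those of every earlier library (log2 6.26 ± 0.11 against P0, adjusted p = 3.05e-14), and they ranked second of the 18 labels behind MedFb2a. Cfb, factor B of the alternative pathway, went from 1.18 and 0.319 CPM to 53.2 and 50.6. Serping1, the inhibitor of C1, went from 136.6 and 163.5 CPM to 977 and 1235.

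**Figure D3:**
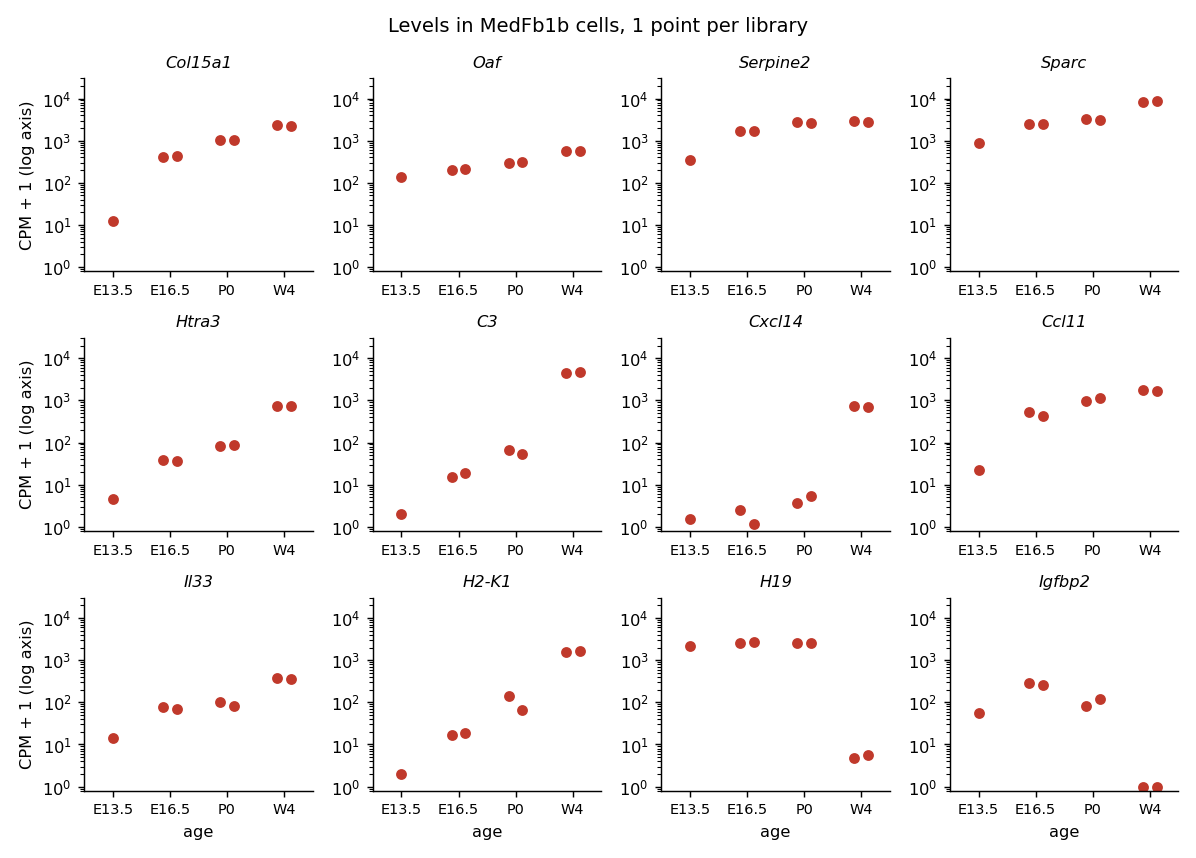
Level in MedFb1b cells (CPM + 1, log axis) of 12 genes at E13.5, E16.5, P0 and W4, with 1 point per library of summed cells. Col15a1, Oaf, Sparc, Htra3, C3, Ccl11 and H2-K1 step up with age, Cxcl14 and Il33 are highest at 4 weeks, and H19 and Igfbp2 drop to 4.54 CPM or less there.

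Chemokines changed in both directions, with 12 of 18 rising and 4 falling and a median log2 change of 1.41. Cxcl14, a chemokine of resting tissues, was at 2.59 and 4.46 CPM at P0 and 742 and 707 at W4 (log2 7.57 ± 0.17, adjusted p = 3.07e-13). Its W4 mean was the highest of the 18 labels, but by a log2 ratio of at most 0.161 over the next label. Ccl19, a ligand of CCR7, which guides thymocytes into the medulla, went from 1.88 and 0.957 CPM to 55.6 and 52.0. Cxcl12, the ligand of CXCR4, went from 44.2 and 51.2 CPM to 255 and 211, having stood at 284 CPM at E13.5. Ccl11, eotaxin-1, was already abundant at birth, at 988 and 1127 CPM, and reached 1800.2 and 1695. Cxcl13, a ligand of CXCR5, had an uneven course, at 58.7 and 30.6 CPM at E16.5, 1.41 and 3.51 at P0, and 134.3 and 244 at W4, so that it fell before birth (log2 -4.17 ± 0.51, adjusted p = 6.01e-05) and rose after it (6.12 ± 0.42, adjusted p = 2.51e-08). The 4 that fell were Cxcl1, Cxcl2, Cxcl5 and Cxcl10, with Cxcl10 going from 154 and 126.8 CPM to 30.9 and 28.2 and Cxcl1 from 421 and 283 CPM to 114.5 and 71.8.

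Cytokines and growth factors of lymphoid niches rose in 13 of 17 cases and fell in 1, Il6, with a median log2 change of 0.995. Il33, an alarmin of the interleukin-1 family, was at 101.3 and 80.7 CPM at P0 and 373 and 353 at W4 (1.98 ± 0.10), and Il34, a ligand of the CSF1 receptor, at 177 and 182.1 CPM and then 475 and 469 (1.36 ± 0.08). Flt3l, which supports dendritic cells and early progenitors, went from 6.35 and 7.02 CPM to 99.1 and 93.1, and Tnfsf13b, which encodes the B cell survival factor BAFF, from 3.06 and 2.87 CPM to 44.2 and 44.97. Il7, the growth factor of early thymocytes, remained low even where it rose, from 0.705 and 0.478 CPM to 4.88 and 5.91. Fgf7, a mitogen of thymic epithelium, was at 7.99 and 8.13 CPM and then 13.03 and 15.0, and its call was lost under DESeq2 and without W4 replicate 2, and after thinning of cells to 2000 UMIs, which gave a log2 change of 0.29 (adjusted p = 0.76) against 0.77.

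Among genes of the lymphotoxin and NF-kB axis, 7 of 12 rose and 1 fell, with a smaller median log2 change of 0.34. Nfkb2, the precursor of the noncanonical p52 subunit, was at 45.8 and 50.1 CPM at E16.5, 87.9 and 67.6 at P0, and 121 and 115.4 at W4 (0.59 ± 0.11 after birth, adjusted p = 0.000446). Its partner Relb went from 80.2 and 65.2 CPM at P0 to 98.8 and 107.4 (0.49 ± 0.10, adjusted p = 0.00121). Nfkbia, the inhibitor of the canonical pathway, was the member that fell, from 595 and 619 CPM to 297 and 338. The receptor gene Ltbr itself stood at 109 and 126 CPM at P0 and at a mean of 118.1 CPM at W4 (-0.03 ± 0.09, adjusted p = 0.82).

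Of the genes for MHC class I presentation, 12 of 13 rose after birth and none fell, with a median log2 change of 2.002, and 8 of 13 had risen before birth, against a background of 20% called in that earlier comparison. H2-K1, a classical class I heavy chain, was at 1.04 CPM at E13.5, 15.8 and 17.8 at E16.5, 142.9 and 64.7 at P0, and 1559 and 1641 at W4. H2-D1 followed the same steps, from 45.8 and 50.7 CPM at E16.5 through 258 and 150.1 to 1959.8 and 1990.1. The light chain gene B2m began higher, at 253 and 280.4 CPM at E16.5, and reached 539.9 and 420.2 at P0 and 1986 and 1936 at W4. For all 3 the ages did not overlap, and the log2 changes after birth were 3.95 ± 0.23, 3.26 ± 0.17 and 2.002 ± 0.10 (largest adjusted p = 3.75e-09). The peptide transporter gene Tap1 changed less, from 31.3 and 26.5 CPM to 54.3 and 48.8, and Psme2, a proteasome activator subunit, stood at 182.2 and 174 CPM and then 153 and 176 (adjusted p = 0.18). Class I heavy chain genes resemble each other in sequence, so the division of reads among H2-K1, H2-D1, H2-Q4 and H2-T23 may be uncertain and was not examined. Interferon-stimulated genes did not rise as a block, with 7 of 21 higher and 3 lower and a median of 0.11.

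Because these genes moved together, stretches of 120 bases from their promoters are shown (RefSeq, GRCm38.p6, positions -200 to -81 relative to the transcription start, 5′ to 3′ on the gene's strand). Of the 14 listed genes, 12 had a promoter in the reference. The kappaB consensus, a motif of 10 positions bound by NF-kB dimers, was searched on both strands in the 250 bases upstream and occurred in 4 of the 12, H2-K1, H2-D1, H2-Q4 and B2m, and in 4.46% of 27018 genes. The core of the interferon-stimulated response element, a pair of GAAA runs parted by any 2 bases and bound by interferon regulatory factors, occurred in 2 of the 12, H2-T23 and B2m, and in 3.46% of all genes. Only this exact pattern was searched, so a promoter without a match may still hold a variant of the element. Capitals mark the bases of a match, to the kappaB consensus in the first 3 sequences and to both motifs in that of B2m, with the interferon element first. A match is a description of letters, and no binding was measured. The H2-K1 stretch lies on the minus strand at chr17:34000428-34000547, that of H2-D1 on the plus strand at chr17:35262894-35263013, that of H2-Q4 on the plus strand at chr17:35379417-35379536, and that of B2m on the plus strand at chr2:122147487-122147606.
H2-K1: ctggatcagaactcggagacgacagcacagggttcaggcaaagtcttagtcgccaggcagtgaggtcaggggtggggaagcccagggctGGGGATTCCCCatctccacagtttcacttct
H2-D1: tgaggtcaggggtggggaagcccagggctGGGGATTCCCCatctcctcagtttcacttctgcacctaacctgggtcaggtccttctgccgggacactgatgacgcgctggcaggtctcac
H2-Q4: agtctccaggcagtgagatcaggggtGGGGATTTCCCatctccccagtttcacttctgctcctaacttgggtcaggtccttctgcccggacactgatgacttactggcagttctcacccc
B2m: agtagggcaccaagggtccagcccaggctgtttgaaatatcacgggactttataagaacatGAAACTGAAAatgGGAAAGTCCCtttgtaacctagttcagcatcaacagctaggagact

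Basement membrane genes rose in 11 of 15 cases and fell in 3, with a median log2 change of 0.66. Hspg2, which encodes perlecan, was at 277 and 292 CPM at P0 and 781 and 778 at W4 (1.42 ± 0.08), and Sparc, a collagen-binding glycoprotein, at 3212 and 3123 CPM and then 8432 and 8788 (1.41 ± 0.06). The laminin chains Lamc1 (207 and 229 CPM, then 458 and 446) and Lamb1 (327 and 398 CPM, then 597 and 582) rose less. The collagen IV gene Col4a1 stood at 1399 and 1786 CPM and then 1951 and 1612, with overlap between the ages (adjusted p = 0.32). Agrn, the agrin gene, fell from 27.0 and 31.6 CPM to 17.9 and 13.2, and Col18a1 and Nid2 also fell (-0.31 ± 0.09 and -0.33 ± 0.10), both on calls that were lost when 1 library was left out. Interstitial collagens had a median log2 change of 0.15, with 4 of 12 higher and 3 lower, near the background shares of 25.3% and 23.7%. Col1a1 stood at 2422 and 2104 CPM and then 2356 and 2372 (adjusted p = 0.74), and Dcn, the proteoglycan decorin, rose from 5444 and 5332 CPM to 15897 and 15915 (1.53 ± 0.06).

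Proteases of the matrix and their inhibitors mostly rose. Of 20 genes, 13 rose and 3 fell, among the latter the inhibitor genes Timp1 and Timp3. Mmp3, stromelysin-1, was at 0.94 and 1.12 CPM at P0 and 231 and 203 at W4, the largest named increase (7.63 ± 0.17, adjusted p = 3.07e-13). Htra3 went from 82.5 and 87.9 CPM to 740 and 739, Htra1 from 316 and 325 CPM to 1057 and 1053, and Mmp2, gelatinase A, from 274 and 315 CPM to 781 and 836. Mmp9 was uneven between the P0 libraries, at 123 and 48.96 CPM, and stood at 253 and 204 at W4 (1.43 ± 0.25, adjusted p = 0.000316). Timp1 went from 72.9 and 70.3 CPM to 22.3 and 21.1. Timp2 was 1 of the inhibitors that rose.

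Other genes named for the size of their rise were Ltc4s, leukotriene C4 synthase (10.8 and 10.7 CPM, then 692 and 696), Csf2rb, the common beta chain of the receptors for interleukin-3, interleukin-5 and GM-CSF (2.82 and 0.638 CPM, then 112.1 and 87.9), the serine protease gene Prss23 (5.41 and 8.93, then 328 and 307), Smoc2 (10.6 and 9.57, then 376 and 325) and Gas6, a ligand of TAM receptors (10.1 and 4.46, then 189 and 188). Of 29 transcription factor genes, 7 were higher, near the background share of 25.3%, and 10 lower, where the background was 23.7%. Meox1, a mesodermal homeobox factor, was at 114.95 and 87.2 CPM at P0 and 220 and 208 at W4. Creb5 (70.8 and 66.7 CPM, then 11.7 and 11.6) and Runx1 (66.99 and 72.2, then 24.2 and 26.6) fell.

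Small proteoglycans and lipid genes mostly rose, and enzymes of retinoic acid synthesis moved in opposite directions. Of 11 proteoglycan genes, 8 were higher and 3 lower at W4, with Prelp at 100.37 and 93.8 CPM and then 496 and 500 (2.33 ± 0.09) and biglycan, Bgn, at 1244 and 1304 CPM and then 2959 and 3018. The 3 that fell were Gpc6, the glypican gene Gpc3 (129.05 and 129.97 CPM, then 11.4 and 10.9) and the versican gene Vcan (322.75 and 277 CPM, then 110.2 and 117.4). Of 12 lipid genes, 9 rose and 2 fell. Lpl, lipoprotein lipase, was at 320 and 289 CPM at E16.5, 476 and 538 at P0, and 1826 and 1833 at W4 (1.82 ± 0.08 after birth), and Apoe, apolipoprotein E, at 447 and 609.5 CPM at P0 and 2229 and 1816 at W4. Retinaldehyde dehydrogenases make retinoic acid, and of the 9 genes of that list 3 rose and 5 fell. Aldh1a2 was at 341.66 CPM at E13.5, 71.6 and 82.6 at E16.5, 28.7 and 45.5 at P0, and 0.814 and 1.82 at W4 (-4.81 ± 0.36, adjusted p = 6.18e-08), whereas Aldh1a1 was at 3.76 and 5.58 CPM at P0 and 55.9 and 59.96 at W4 (3.55 ± 0.19, adjusted p = 1.65e-09). The levels of Aldh1a2 thus lay lower at each later age without overlap. Igf2, an imprinted growth factor, was at 78.3 and 69.5 CPM at P0 and at 0 and 0.227 CPM at W4. Smaller or mixed shifts were found for adhesion genes (7 of 14 higher, 3 lower), among them Vcam1 at 122.7 and 105.25 CPM and then 183.5 and 180.6, for axon guidance genes (6 of 20 higher, 7 lower), for Wnt modulators and targets (6 of 15 higher, 3 lower) and for BMP and TGF-beta genes (7 of 19 higher, 6 lower). The background shares were 25.3% higher and 23.7% lower.

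Immediate early and stress genes mostly fell, 16 of 20, while 2 rose. Fos was at 2695 and 2042 CPM at P0 and 738 and 460 at W4, and Atf3 at 178 and 127.1 CPM and then 11.1 and 13.6. The heat shock gene Hspa1a, 1 of the 2 that rose, was at 453 and 489.5 CPM at E16.5, 134.9 and 121.8 at P0, and 1140.2 and 979 at W4, so that it fell and then rose with no overlap. The methods describe a depletion of CD45+ cells with beads for digests of adult thymi, and the part of handling in these values cannot be told apart from that of age.

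Transcripts of other cell types also moved between P0 and W4. The 4 globin genes summed to 109.8 to 123.4 CPM at P0 and 1731 to 3302 CPM at W4, all 4 passing the test, with Hbb-bt among the 10 genes chosen for the size of their rise. The 6 thymocyte and leukocyte markers summed to 18.98 to 37.8 CPM and then 59.7 to 101.5 CPM, with 4 of 6 higher, and 4 of 5 MHC class II genes rose with a median of 1.99. The 4 endothelial markers summed to 5.64 to 7.02 CPM and then 14.99 to 24.7 CPM and the 5 epithelial ones to 3.03 to 7.05 and then 12.49 to 15.5 CPM, and in each list both members tested rose. At W4 several of these transcripts lay close to the median of the 17 other labels, for example Cd74 at 24.5 CPM in MedFb1b against 30.2, Cd8a at 16.54 against 17.5 and Hbb-bs at 1211 against 1276. The 5 mural markers fell in sum from 432.3 to 471.7 CPM to 113.6 to 128.1 CPM, with 3 of 5 called, among them the pericyte channel gene Kcnj8 (275 and 346 CPM, then 65.4 and 53.4). The 4 capsular markers rose in sum from 140.2 to 171.6 CPM to 802.5 to 972.2 CPM, with 3 of 4 called. Proliferation genes were low and fell in 3 of 4 cases, of which Top2a lost its call without P0 replicate 1 (adjusted p = 0.173) or W4 replicate 2 (adjusted p = 0.184).

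The step from E16.5 to P0 was smaller. Of the same 11864 genes, 2372 (20%) passed, 1207 higher (10.2%) and 1165 lower (9.82%), and the number was 878 or 911 when E16.5 replicate 1 or 2 was left out. Mmp9 rose by 2.61 ± 0.36 (adjusted p = 0.000175), from 13.9 and 10.96 CPM. Among the genes chosen for the size of the change, H2-K1 rose most (2.46 ± 0.29, adjusted p = 4.28e-05), followed by Angptl4, a lipoprotein lipase inhibitor, at 16.0 and 15.4 CPM and then 107.9 and 75.1. Nr4a1, an immediate early nuclear receptor, went from 27.5 and 25.1 CPM to 140 and 104. Surface proteins were Cd9 (85.6 and 83.6 CPM, then 374 and 287), Cd34 (171 and 186, then 653 and 524) and Tspan11 (23.7 and 25.6, then 95.4 and 77.7), with Abi3bp, one of the leading genes, at 23.3 and 25.8 CPM and then 110 and 73.5. Angptl4 and Nr4a1 were back at 14.9 and 14.3 CPM and 36.9 and 26.3 CPM at W4, whereas Cd9, Cd34, Tspan11 and Abi3bp went on to higher levels.

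Hspa1a fell most among the genes chosen for the size of their fall before birth (-2.01 ± 0.09, adjusted p = 2.71e-08). Others were the fatty acid binding proteins Fabp4 (92.6 and 114 CPM, then 36.7 and 34.4) and Fabp5 (497 and 438, then 196 and 141), the imprinted genes Cdkn1c, a cell cycle inhibitor (2949 and 3079 CPM, then 1298 and 1412), and Peg10 (107.8 and 109, then 43.7 and 44.3), and Igfbp2 (283 and 255, then 81.1 and 119.3). The fetal list had thus begun to fall, with 12 of 17 lower and a median of -0.63. Emcn, endomucin, Rasl11a, Sult1a1 and G0s2 completed the group, and G0s2 returned from 116 and 147 CPM at P0 to 488 and 447 at W4. The elastic fibre list rose in 10 of 15 cases and the list of BMP and TGF-beta genes in 11 of 19, while complement was largely still to come, with 2 of 11.

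The change after birth was then tested against that in MedFb2a, which shared the libraries of MedFb1b. With library as a block, 1294 of 12353 genes (10.5%) changed to a different extent, 731 more upward in MedFb1b (5.92%) and 563 more downward (4.56%). The number was 376 under DESeq2, 646 without the library block and 727 without P0 replicate 2. Of the class I presentation genes, 12 of 14 had a more positive change in MedFb1b and none a less positive one, with a median difference of 0.65 in log2 change. H2-K1 (0.89 ± 0.09), H2-D1 (0.58 ± 0.07) and B2m (0.22 ± 0.06, adjusted p = 0.0152) were among them, yet at W4 MedFb2a still held more H2-K1, 2777 and 2699.7 CPM, and all 3 calls were lost without the library block (adjusted p = 0.151 for H2-K1, 0.222 for H2-D1 and 0.560 for B2m). That for B2m was also lost under DESeq2 (adjusted p = 0.747) and without P0 replicate 1 (adjusted p = 0.106). Psme2, 1 of the 12, did not pass the test of age in MedFb1b itself. The change was more positive in 9 of 15 basement membrane genes and less positive in 1, with Sparc at 0.93 ± 0.04, Col4a1 at 0.93 ± 0.05, Nid1 at 0.83 ± 0.07 and Lamb1 at 0.59 ± 0.07. It was more positive in 9 of 18 chemokines and less positive in 1, and more positive in 6 of 13 genes of the NF-kB axis, among them Rela (0.61 ± 0.12), whose call was lost under DESeq2 (adjusted p = 0.128). The difference was 1.05 ± 0.07 for Oaf and -0.84 ± 0.05 for Serpine2, and -0.02 ± 0.06 for Col15a1 (adjusted p = 0.94). Both labels were drawn from these same counts, so p-values of this test may partly reflect the labelling, above all for marker genes. Against CapFb1b in place of MedFb2a, the sign turned for H2-K1, Sparc, Col4a1 and Nid1, none of which then passed the test, the calls for H2-D1 and Lamb1 were lost, and those for B2m, Rela, Oaf and Serpine2 held.

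Among genes named for the size of this difference, some shifted mainly in 1 label and others in both at different rates. Igfbp5 stood at 191.8 and 155.96 CPM and then 214 and 194 in MedFb1b but went from 364.3 and 439.1 to 80.3 and 82.01 in MedFb2a (2.53 ± 0.13). Prss23 was higher at W4 in both labels and gained more in MedFb1b (3.20 ± 0.20), from 19.9 and 25.1 CPM to 95.6 and 110 in MedFb2a. Cxcl14 reached only 34.5 and 36.1 CPM in MedFb2a at W4 (2.98 ± 0.73, adjusted p = 0.00697), but the sign of its difference rested on P0 replicate 1, without which it was -0.44, and its call was lost under DESeq2 (adjusted p = 0.999) and without the library block (adjusted p = 0.0675). Against CapFb1b in place of MedFb2a, the difference for Cxcl14 was 0.79 and was not called (adjusted p = 0.152). The call for Cxcl13 (3.43 ± 1.09, adjusted p = 0.0416) was lost under DESeq2 (adjusted p = 0.13), without the library block, and without any single E16.5 or P0 library (adjusted p = 0.057 to 0.40).

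On the other side stood Ifi27l2a, an interferon-inducible gene, at 267 and 158.04 CPM and then 159 and 186.9 in MedFb1b, against 281.4 and 166.4 and then 914.6 and 737.2 in MedFb2a (-2.19 ± 0.11). Rgs16 (-1.90 ± 0.17), Serpina3g (-1.88 ± 0.15) and Emcn (-1.76 ± 0.23) were lower at W4 in both labels and dropped further in MedFb1b, with Rgs16 still at 227 and 216 CPM in MedFb2a at W4 and 30.1 and 10.7 in MedFb1b. Igfbp2 was at 1.30 and 1.398 CPM in MedFb2a at W4 and at 0 in MedFb1b.

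**Figure D4:**
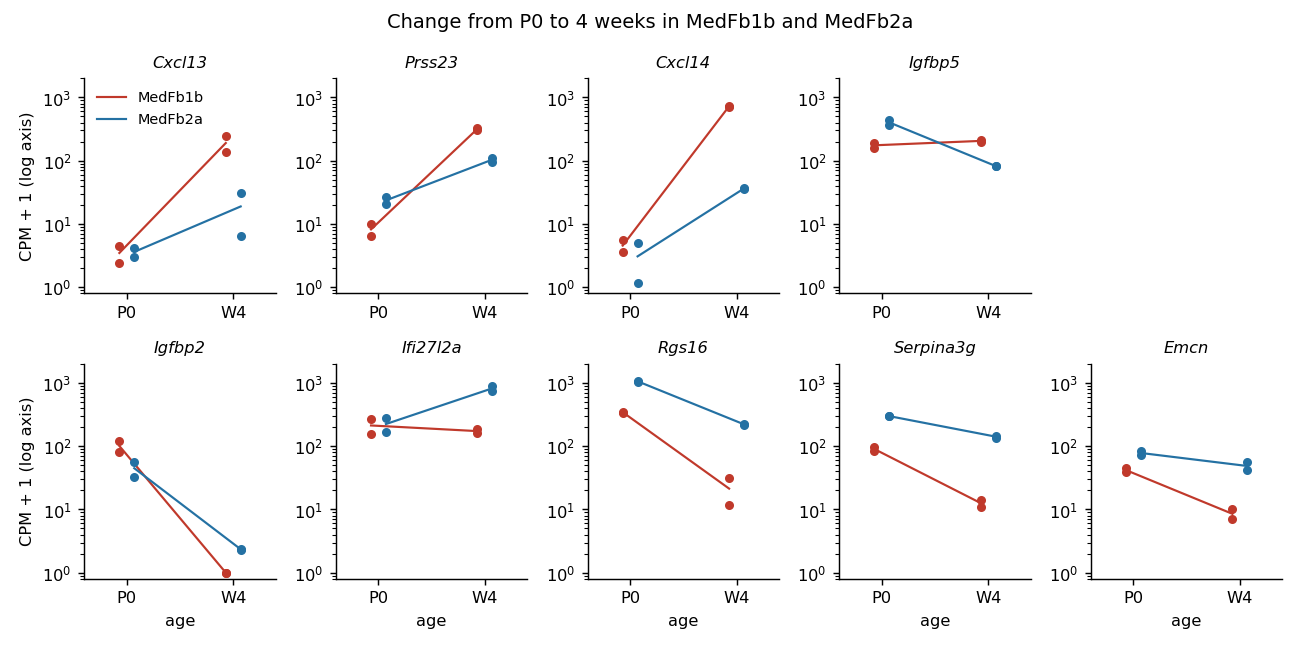
Levels (CPM + 1, log axis) at P0 and W4 in MedFb1b (red) and MedFb2a (blue) of 9 genes named for the size of the difference in change; points are libraries and lines join the means of 2. Lines in the upper row end relatively higher in MedFb1b, and those in the lower row relatively lower.

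Bulk libraries of sorted fibroblasts were samples apart from the clustered single cells, although the paper also projected their profiles onto the single-cell map. Medullary fibroblasts are recovered among podoplanin-positive (gp38+) CD26- cells and capsular ones among gp38+CD26+ cells. The former sort is also known to hold some capsular cells (CapFb1). At 4 weeks, 6 gp38+CD26- libraries were compared with 5 gp38+CD26+ libraries, a further library of 25702 counts being left out, and 1437 of 14066 genes (10.2%) differed, 738 higher (5.25%) and 699 lower (4.97%) in gp38+CD26- cells. In bulk samples, a smaller share of a cell type and less RNA per cell cannot be told apart. All 20 leading genes of MedFb1b were tested. Of these, 8 were higher and none lower in gp38+CD26- cells, 17 had a log2 difference above 0, and the median was 0.65 against 0.031 for all genes. Serpine2 ranged from 13856 to 15426 CPM (median 14351) against 424 to 2043 (median 817) and the groups did not overlap (3.58 ± 0.29). Col15a1 ranged from 1218 to 2158 CPM (median 1697) against 303 to 850 (median 429), again without overlap (1.77 ± 0.35, adjusted p = 0.00124). Oaf ranged from 636 to 1026 CPM against 656 to 970 and overlapped fully (0.03 ± 0.24, adjusted p = 0.97).

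Of the other leading genes, Mmp9 was at 343 to 453 CPM in gp38+CD26- cells and at 0 to 52.6 CPM in gp38+CD26+ cells (4.39 ± 1.06, adjusted p = 0.00836). P2ry1 (3.46 ± 0.81), Gpm6b (2.20 ± 0.27), Abi3bp (1.51 ± 0.34), Plpp1 (0.83 ± 0.17), Mxra8 (0.66 ± 0.13) and Htra1 (0.65 ± 0.16) were also higher, the call for Mxra8 being lost when the library of 25702 counts was kept (adjusted p = 0.0851). The medullary marker Sod3 (4061 to 6026 CPM against 610 to 940), the chemokine gene Ccl19 (196 to 368 against 0 to 7.44) and the class I light chain gene B2m (4231 to 6903 against 989 to 1149) did not overlap between the populations. C3 (1.09 ± 0.41, adjusted p = 0.105) and Cxcl14 (1.90 ± 0.94, adjusted p = 0.254) did not pass, and Igfbp5 (-4.13 ± 0.43) and Sparc (-0.94 ± 0.18) were lower in gp38+CD26- cells, Sparc on a call lost when the library of 25702 counts was kept (adjusted p = 0.435). Csmd1 and H2-D1 were higher too, on calls that were lost without some single gp38+CD26+ libraries. All 5 mural markers were higher in gp38+CD26- cells, Rgs5 by 7.26 ± 0.94 and Acta2 by 3.67 ± 0.78, while 3 of 4 capsular and 4 of 4 mesothelial markers were lower. Single MedFb1b cells also held mural transcripts, 113.6 to 128.1 CPM in sum at W4. The part of mural cells in the values above was not tested.

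In sorted gp38+CD26- cells, complement and class I genes also rose with age and fetal genes fell. From P0 to 4 weeks, with 6 libraries each, 2833 genes (20.1%) passed the test, 1622 higher (11.5%) and 1211 lower (8.61%). Complement rose in 11 of 11 cases (median 2.95) and class I presentation in 13 of 14 (median 2.82), and the fetal list fell in 14 of 15 (median -6.17), against a median of -0.0648 for all genes. C3 ranged from 51.7 to 326.9 CPM at P0 and 1782 to 3481 at W4 (4.76 ± 0.45), H2-K1 from 31.9 to 69.8 and 1119 to 1464 (4.92 ± 0.24), and H19 from 2232 to 2665 and 0.257 to 36.5 (-8.00 ± 0.75). None of the 3 overlapped between the ages. Basement membrane genes did not follow the single-cell result, with 3 of 16 higher and 4 lower, nor did the NF-kB axis, with 0 of 13 higher and 1 lower. Of the interstitial collagens 0 of 13 were higher and 7 lower, among them Col1a2 (-0.54 ± 0.12), which had risen in MedFb1b, and Col1a1 (-0.77 ± 0.24), both on calls lost when the library of 25702 counts was kept. Mmp3 (6.30 ± 0.70), Ltc4s (7.96 ± 0.88), Cxcl14 (6.99 ± 1.12), Il33 (1.22 ± 0.20) and Il34 (1.46 ± 0.22) also rose. Serpine2 rose here (1.21 ± 0.25, adjusted p = 0.0011, a call lost at 0.0511 when the library of 25702 counts was kept), whereas Col15a1 (0.58 ± 0.32, adjusted p = 0.23) and Oaf (0.06 ± 0.23, adjusted p = 0.91) did not pass. All 4 globin genes were higher at W4 in these libraries as well, and none of the 6 thymocyte markers was called. Of the capsular markers 3 of 4 rose (Pi16, Dpt and Mfap5, median 2.42), and of the mural markers 2 of 5 fell (Kcnj8 and Cspg4). Their part in the values above was not tested.

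**Figure D5:**
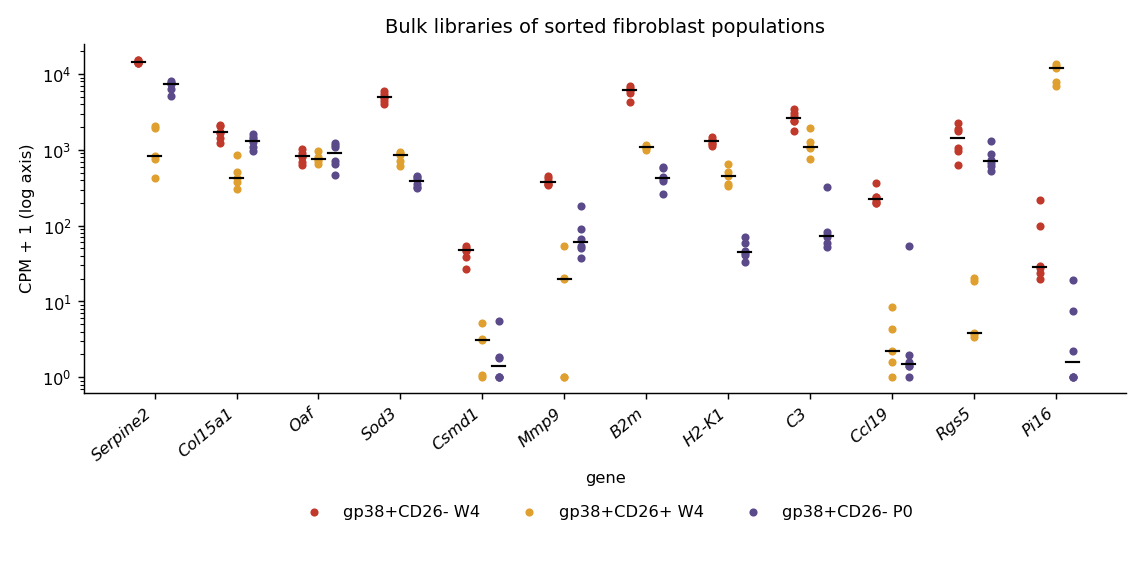
Levels (CPM + 1, log axis) of 12 genes in single bulk libraries of gp38+CD26- cells at 4 weeks (6), gp38+CD26+ cells at 4 weeks (5) and gp38+CD26- cells at P0 (6); black bars are medians. Serpine2, Col15a1, Sod3 and Mmp9 separate the 2 populations at 4 weeks, Oaf overlaps, and Pi16, a capsular marker, and Rgs5, a pericyte marker, differ in opposite directions.

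In newborn Tbx1+/-Crkl+/- mice, which lack 1 copy each of a pair of genes in the human 22q11.2 deletion, and their wild-type littermates, MedFb1b was a transferred label, carried by 740 cells over the 6 libraries of both genotypes. Each library held 38 to 214 of them. The median UMIs per cell were 2662, 3755 and 4995 in wild-type and 2156, 2366 and 2360 in heterozygous libraries, well under those of the age series. Tbx1, which encodes a T-box factor, had 0, 1 and 3 UMIs in the wild-type libraries and none in the heterozygous ones, and Crkl, which encodes a signalling adaptor, 6, 17 and 20 against 0, 7 and 6. Neither passed the filter on low counts, and at this depth they check the genotype labels only weakly. The share of MedFb1b among NETS cells was 6.63% ± 0.44 (SD, n = 3) in wild-type and 5.47% ± 0.98 (SD, n = 3) in heterozygous mice (exact two-sided permutation test, p = 0.2, where the smallest p this design allows is 0.1).

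No gene passed the genotype test in MedFb1b, 0 of 6166 (0.00%), with 406 at an unadjusted p under 0.05 by edgeR, and DESeq2 gave 0 and 206. Testing without a filter on low counts called 18 genes, and leaving out 1 library in turn called 2 (without heterozygous replicate 3) to 16 (without heterozygous replicate 1 or wild-type replicate 1). Oaf stood at 217, 229 and 325 CPM in wild-type and 131.6, 138.7 and 114.6 CPM in heterozygous libraries, without overlap, at a log2 difference of -0.99 ± 0.28 (adjusted p = 0.24). Serpine2 stood at 1995, 2075 and 1928 against 1640, 1389 and 1239 CPM (-0.48 ± 0.26, adjusted p = 0.80). Col15a1 stood at 413, 575 and 384 against 476, 381 and 358 CPM and overlapped (-0.17 ± 0.25, adjusted p = 0.95). Sums of several fibroblast and matrix lists stood lower in heterozygous libraries without overlap. They were 653.0 to 849.5 against 497.7 to 607.5 CPM for the 4 medullary fibroblast markers. For the 16 basement membrane genes they were 8775 to 9923 against 7569 to 8687 CPM. Proteoglycan and interstitial collagen sums separated likewise, while elastic fibre and chemokine sums overlapped. How many of all lists or genes separate in this way was not counted. Summed levels of some markers of other cells stood higher in the heterozygous libraries without overlap. The 5 epithelial markers summed to 151.9 to 242.7 CPM in wild-type and 253.1 to 528.8 CPM in heterozygous libraries. For the 4 endothelial markers the sums were 19.6 to 59.1 against 60.7 to 68.0 CPM. For both the epithelial and the endothelial sums, the gap between genotypes was under the 30.4 CPM that 3 UMIs made in heterozygous replicate 1. The 6 thymocyte and leukocyte markers summed to 468.1 to 491.3 against 567.0 to 1467 CPM. For the 6 MHC class II genes the sums were 869.6 to 1059 against 1215 to 2912 CPM. Cd74 belongs to both of the last lists, and in heterozygous replicate 1 only 1 of the 6 thymocyte and leukocyte markers was above 0. Sums of erythroid, macrophage, mesothelial and neural crest markers overlapped between the genotypes. The 5 mural markers summed to 675.1 to 685.8 against 394.9 to 674.6 CPM, a gap under the 7.05 CPM that 3 UMIs made in heterozygous replicate 2. Their part in the values above was not tested.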

How the data were processed

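For the single-cell data, the authors processed reads with Cell Ranger (3.1.0, mm10), kept cells by genes detected, mitochondrial share and DoubletFinder singlet calls, removed Ptprc-expressing and other contaminant clusters, integrated libraries and named clusters with Seurat. Newborn cells received their labels by transfer. The deposited single-cell values are UMI counts, and the deposited bulk values are read counts per gene (STAR 2.5.3a and HTSeq, per the labels). Here, UMI counts of all cells of a label were summed per library (at least 20 cells), expressed as CPM and tested with edgeR 4.0.16 (quasi-likelihood, R 4.3.3) over all genes passing its filter on low counts. P-values were adjusted by Benjamini-Hochberg, with a threshold of 0.05. DESeq2 1.42.0 was an alternative. The single E12.5 and E13.5 libraries entered no reported test of expression, and the E13.5 library was added to the age fit as an alternative. Bulk libraries under 1000000 gene counts were left out, and 37607 of 39179 bulk identifiers had a symbol in GENCODE M21. The used bulk libraries held 8454267 to 15560221 gene counts, and the MedFb1b cells of a tested library 3684566 to 6270665 UMIs. Scripts were tested on simulated data.

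Members and gene lists were chosen with earlier results of these data known. Genes were named by rule. Leading genes were the 20 of at least 100 CPM with the largest margin over the next label at W4, after adding 1 CPM. Against each neighbour, 5 genes a side were taken by the smallest ratio over libraries, 10 a direction by change with age (mean of at least 50 CPM, no overlap), and 5 a side by difference from MedFb2a. Listed markers and pathway genes were also named, and examples within lists were picked with values in view. Results for some genes that these rules would name are not reported here.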

Additional observations from a re-analysis of the deposited data

Results flagged for a closer look

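In the bulk libraries, 14 groups of 5 or 6 libraries, 13.33% of those examined, held 1 library whose gap to the others passed Dixon's 95% limit, a limit that chance passes in about 1 of 20 groups. Among 6 gp38+CD26- libraries at P0, the highest stood apart for Mmp9 (178.6 CPM), Csmd1 (4.498), Ccl19 (52.8), Pi16 (18.1), Acta2 (175.1), C3 (326.9) and Mest (4505). Among 6 gp38+CD26- libraries at 4 weeks it did so for Ccl19 (367.9 CPM), H19 (36.5) and Mmp3 (1039). Among 5 gp38+CD26+ libraries at 4 weeks it did so for P2ry1 (32.0 CPM), Cxcl14 (147.5), Dlk1 (16.498) and Ltc4s (32.996).

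The change from P0 to W4 differed between MedFb1b and MedFb2a, by the test of the difference itself, for 23 of the genes the text follows. Both labels were drawn from the same counts, which limits this test. The log2 difference was above 0 for Cxcl13 (3.43), Prss23 (3.20), Cxcl14 (2.98), Ccl19 (2.84), Igfbp5 (2.53) and C3 (1.52), for the marker Oaf (1.05), for the matrix genes Sparc (0.93), Col4a1 (0.93), Nid1 (0.83) and Lamb1 (0.59), for the class I genes H2-K1 (0.89), H2-D1 (0.58) and B2m (0.22), and for Rela (0.61) and Nfkb2 (0.37). It was below 0 for Igfbp2 (-6.91, a fitted value against libraries at 0 that is no bound), Ifi27l2a (-2.19), Rgs16 (-1.90), Serpina3g (-1.88), Emcn (-1.76), Serpine2 (-0.84) and Dcn (-0.21). Under DESeq2 the calls for Cxcl13, Cxcl14, Ccl19, Rela, Nfkb2, B2m and Dcn were lost (adjusted p = 0.128 to 0.999), and without the library block those for Cxcl13, Cxcl14, H2-K1, H2-D1, B2m, Igfbp2, Nfkb2 and Dcn (adjusted p = 0.0675 to 0.560). The call for Nfkb2 was further lost without any 1 of the P0 and W4 libraries (adjusted p = 0.0511 to 0.130), that for Dcn without P0 replicate 1 (0.0564) or W4 replicate 2 (0.0673), and that for B2m without P0 replicate 1 (0.106). With CapFb1b in place of MedFb2a, the calls for Cxcl14, C3, Emcn, H2-D1, Lamb1, Nfkb2 and Dcn were lost, and the sign turned for Prss23, Igfbp5, Serpina3g, H2-K1, Ccl19, Sparc, Nid1 and Col4a1.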

How the results depend on the processing

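For single genes, 2012 of 2103 alternative values kept direction and side of the threshold. Values without an adjusted p, and genes that an alternative did not test, were not counted among them. Thinning cells to 2000 UMIs left 2452 genes called for W4 against P0, 768 for P0 against E16.5, 3080 for W4 against E16.5 and 3120 over 3 ages. DESeq2 called 3815 for W4 against P0, 1032 for P0 against E16.5 and 376 for the difference from MedFb2a, which gave 646 without the library and replicate block. Leaving out 1 library gave 4643 to 5694 for W4 against P0, 878 to 2351 for P0 against E16.5 (878 and 911 without E16.5 replicates 1 and 2), 727 to 1137 for the difference (727 without P0 replicate 2) and 2 to 16 for the genotype, where testing without a filter called 18. Of the 20 leading genes, a minimum of 50 CPM kept 7, cell-wise log-normalized means 10, thinning 9 and either W4 library alone 10. By the share of cells with a UMI after thinning, Col15a1 and Oaf ranked 2 and Serpine2 ranked 1. The causes were not tested.

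Some small changes turned sign. For W4 against P0, leaving out 1 library gave -0.0222 to 0.0491 for Serpine2, -0.0388 to 0.43 for Sox4, -0.0474 to 0.32 for Col4a1, -0.0659 to 0.126 for Col1a1 and -0.14 to 0.0915 for Ltbr, and thinning gave -0.098 for Sox4 and -0.0198 for Col1a1. With CapFb1b in place of MedFb2a, the difference was -0.18 for Prss23, -0.596 for Igfbp5, 0.65 for Serpina3g, -0.21 for H2-K1, -0.34 for Ccl19, -0.0598 for Sparc, -0.0821 for Nid1, -0.093 for Col4a1 and 0.20 for Col15a1. With 1 library left out, it was -0.44 (without P0 replicate 1) to 4.95 for Cxcl14 and -0.0965 to 0.0683 for Col15a1, which stood at 0.0048 with no filter. The genotype difference of Col15a1 was -0.283 to 0.026 with 1 library left out. In bulk, Oaf was at -0.0063 with DESeq2 and with its size factors, and at -0.01296 to 0.13 with 1 library left out. Leaving out single gp38+CD26+ libraries was chosen after seeing the data.

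Replicate numbers did not pair the libraries, as deviations of same-numbered libraries correlated at -0.0785, 0.0404 and -0.0694 between ages and at 0.159, -0.0215 and -0.344 between genotypes. Differently numbered libraries of the 2 genotypes correlated at -0.452 to 0.491, a structure that the genotype test did not model. With the E13.5 library in the fit, 5898 genes were called for W4 against P0 and 2311 for P0 against E16.5. With a replicate block, 5776 genes were called for W4 against P0, 2383 for P0 against E16.5, 6631 for W4 against E16.5 and 0 for the genotype.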
